A study of Mus musculus with 6 samples.

Results

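The enzymes that build, recycle and break down purines were examined in whole kidneys of mice fed adenine, itself a purine base. They were chosen by gene symbol, from a fixed list of 43 genes of adenine and nucleoside handling, synthesis from small precursors, nucleotide interconversion and urate breakdown, and 42 of the 43 were found among the 40993 genes of the deposited table. Aprt, the enzyme that turns adenine into AMP, was not analysed here, nor was its ratio to Xdh. Kidneys came from C57BL/6 mice aged 2 months that received either an adenine-enriched diet (3 samples, called adenine 1 to 3) or a standard diet (3 samples, called standard 1 to 3). The labels name no genetic change and give neither the dose of adenine nor the length of feeding. Whether each sample is its own animal is also not stated, and the p-values below therefore speak only of the spread among these 6 samples, which may be technical. Levels are given in FPKM (fragments divided by transcript length and by the fragments of the library, so that genes of different length can be set side by side), and ± gives the SD of 3 samples.

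Purine nucleotides are made by a chain of enzymes that assembles the ring on activated ribose phosphate (PRPP) up to IMP, from which the AMP and the GMP branches start. Salvage enzymes return free bases and nucleosides to the nucleotide pool, and breakdown leads through hypoxanthine, guanine and xanthine to urate, which most mammals other than apes oxidise further in the liver. Adenine that escapes salvage is oxidised by xanthine dehydrogenase to dihydroxyadenine, a poorly soluble product that crystallises in kidney tubules, and adenine feeding is a common way of injuring the rodent kidney.

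Promoter windows of 5 of these genes are shown. They are the genes past the threshold that hold CACGTG in a window (2 rose on the adenine-enriched diet and 2 fell), and Ppat, which did not pass the test. Other genes past the threshold that had a window held no match and are not shown. Genes with a match that did not pass the test are not shown either. Atic and Impdh2 rose, Paics and Nme1 fell, and Ppat is the head-to-head neighbour of Paics. Each window runs from 250 bases before to 50 bases after an annotated start (RefSeq, GRCm38.p6), is written 5′ to 3′ on the strand of the gene, and has CACGTG, the E-box bound by Myc and related factors, in capitals. The windows are chr1:71556906-71557205 on the plus strand for Atic, chr9:108560186-108560485 on the plus strand for Impdh2, chr5:76951052-76951351 on the plus strand for Paics, chr11:93968223-93968522 on the minus strand for Nme1 and chr5:76951529-76951828 on the minus strand for Ppat.
Atic: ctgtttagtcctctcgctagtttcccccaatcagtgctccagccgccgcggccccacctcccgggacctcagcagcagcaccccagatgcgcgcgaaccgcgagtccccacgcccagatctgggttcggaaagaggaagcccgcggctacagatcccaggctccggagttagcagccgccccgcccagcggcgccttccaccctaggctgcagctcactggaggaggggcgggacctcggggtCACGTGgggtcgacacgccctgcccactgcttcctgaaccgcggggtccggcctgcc
Impdh2: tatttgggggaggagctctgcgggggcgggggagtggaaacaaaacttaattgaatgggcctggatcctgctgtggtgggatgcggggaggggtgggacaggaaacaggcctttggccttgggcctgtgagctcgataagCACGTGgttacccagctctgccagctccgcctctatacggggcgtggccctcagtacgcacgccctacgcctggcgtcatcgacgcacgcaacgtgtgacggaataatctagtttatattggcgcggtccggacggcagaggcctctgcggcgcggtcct
Paics: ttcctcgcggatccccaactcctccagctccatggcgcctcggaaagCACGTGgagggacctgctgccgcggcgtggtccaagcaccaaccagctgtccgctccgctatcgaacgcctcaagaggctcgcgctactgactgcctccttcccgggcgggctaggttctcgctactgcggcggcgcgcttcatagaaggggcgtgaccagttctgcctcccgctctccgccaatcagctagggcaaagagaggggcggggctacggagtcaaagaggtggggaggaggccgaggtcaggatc
Nme1: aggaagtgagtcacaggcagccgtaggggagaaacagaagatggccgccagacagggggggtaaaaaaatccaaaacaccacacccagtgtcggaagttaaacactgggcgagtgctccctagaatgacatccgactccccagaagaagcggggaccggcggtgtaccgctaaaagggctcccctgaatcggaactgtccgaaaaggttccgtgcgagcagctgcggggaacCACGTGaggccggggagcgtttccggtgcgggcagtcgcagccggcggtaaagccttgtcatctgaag
Ppat: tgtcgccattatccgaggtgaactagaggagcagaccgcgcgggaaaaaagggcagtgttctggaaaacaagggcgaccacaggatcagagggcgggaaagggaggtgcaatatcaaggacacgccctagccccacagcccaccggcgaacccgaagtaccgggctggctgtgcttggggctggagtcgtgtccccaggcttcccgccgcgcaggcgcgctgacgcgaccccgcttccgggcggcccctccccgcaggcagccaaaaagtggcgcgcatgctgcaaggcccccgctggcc
CACGTG, which reads the same on both strands, was found in 8 of 61 windows of the 39 purine enzyme genes that had one (13.1%), and in 7.15% of 32851 windows of all genes. The 7 genes with a match were Atic and Impdh2, which rose, Paics and Nme1, which fell, and Ak4, Ampd3 and Nt5c2, which were not called. The letters GGGCGG, searched on both strands, were in 62.3% of the purine enzyme windows and in 35.7% of all windows, and TATAAA, also searched on both strands, in 4.92% and 13.6%. A match is a description of these letters and not of binding.

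Libraries and tissue were checked before the single genes. The steps between low FPKM values gave an approximate depth of 17500000 to 23350000 fragments in the adenine libraries and 17400000 to 20150000 in the standard libraries, at which 3 fragments of a 2 kb transcript correspond to at most 0.0862 FPKM. Standard 2 stood apart in that genes spanning under 300 bp held 90.1% of its summed FPKM, against 11.2% to 26.3% in the other 5 libraries. Calls that change without it are given for the purine enzymes and for the genes named from the further lists. Counts over the marker lists and the further lists include it. Markers of kidney were present in every library, with the 6 thick ascending limb genes summing to 3617 to 4676 FPKM in adenine samples and 4012 to 4314 FPKM in standard samples. The 10 proximal tubule markers summed to 1028 to 2268 FPKM in adenine samples and 2885 to 3962 FPKM in standard samples, and 9 of the 10 fell. All 9 macrophage markers found in the table rose, with sums of 833 to 1926 FPKM in adenine samples and 118 to 144 FPKM in standard samples. Of 10 markers of dividing cells 9 rose, with sums of 71.3 to 146 FPKM in adenine samples and 39.9 to 44.7 FPKM in standard samples. All 6 fibroblast markers rose, with sums of 653 to 1241 FPKM in adenine samples and 104 to 148 FPKM in standard samples. The 7 B and plasma cell markers found summed to 12656 FPKM in adenine 1, against 579 and 1131 FPKM in adenine 2 and 3 and 93.8 to 940.5 FPKM in standard samples. None of those 7 was called by limma (1 at an unadjusted p under 0.05). Of the other markers 5 of 5 podocyte, 5 of 6 T cell and 2 of 6 endothelial genes rose. The T cell genes Cd3d and Cd3e and the dividing-cell gene Ccnb1 averaged 0.415, 0.485 and 0.388 FPKM in standard samples. They reached the mean of 0.5 FPKM needed for testing only through the adenine samples. Of 6 thick ascending limb genes 1 rose and 3 fell, and 0 of 5 red blood cell genes were called by limma (0 at an unadjusted p under 0.05). With median-of-ratios scaling 9 macrophage, 5 fibroblast, 8 dividing-cell, 3 podocyte and 3 T cell genes rose. Falls with that scaling included 9 proximal tubule, 4 thick ascending limb and 2 endothelial genes. Of all tested genes 29.7% rose and 6.84% fell as deposited, and 16.4% and 15.8% with that scaling. The 6 liver genes summed to 116 to 285 FPKM in adenine samples and 132 to 180 FPKM in standard samples, Serpina1a rising and Apoa2 falling, while Ahsg was at no more than 0.134 FPKM in adenine samples and at 0 in all standard samples. The 6 skeletal muscle genes found summed to at most 2.03 FPKM in any library. In whole kidney, fewer cells of a type and less RNA per cell cannot be told apart, and the part of these cell types in the results below was not tested.

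Of the 42 genes, 39 reached the mean of 0.5 FPKM needed for testing. On the adenine-enriched diet 11 of the 39 rose, namely Gda, Dck, Impdh1, Xdh, Ampd2, Atic, Impdh2, Ak1, Nt5c, Gart and Pfas, and 5 fell, namely Nme2, Adk, Nme1, Ak3 and Paics (limma with Benjamini-Hochberg adjustment over 15431 genes, adjusted p under 0.05). Of all tested genes 29.7% rose and 6.84% fell (36.5% in either direction, against 16 of these 39), so the 28.2% of purine enzyme genes that rose lies near the background. The median log2 change was 0.10 for the 39 genes and 0.25 for all tested genes. FPKM values of the adenine samples lay wholly above those of the standard samples for 17 of the 39 genes and wholly below for 8, against 44.4% and 11.8% of all tested genes. Under median-of-ratios scaling, where the typical gene is set level between libraries, 8 rose and 11 fell (16.4% and 15.8% of all tested genes). Of the 16 calls 13 held after this scaling, with the rises of Gart, Pfas and Nt5c lost, and Prps2, Ppat, Gmps, Guk1, Ak4 and Nt5c3 were then called as falls. The 11 rises became 9, 5 and 10 without adenine 1, 2 and 3, and 6, 9 and 7 without standard 1, 2 and 3. Over all genes the 4581 rises became 2966, 1888 and 5452, and 2480, 2566 and 2371, in the same omissions. The 5 falls became 2, 0 and 8 without adenine 1, 2 and 3, and 0 without standard 1, standard 2 or standard 3. Over all genes the 1056 falls became 643, 231 and 1594 without adenine 1, 2 and 3. They became 435, 363 and 418 without standard 1, 2 and 3. In the 4 omissions that left 0 falls called by limma, 4 to 7 of the 39 genes were lower at an unadjusted p under 0.05. The share of all tested genes was not computed for those omissions, so that count has no background beside it. With every library kept it was 6 of the 39 genes, and 1576 of all 15431 tested genes.

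**Figure D1:**
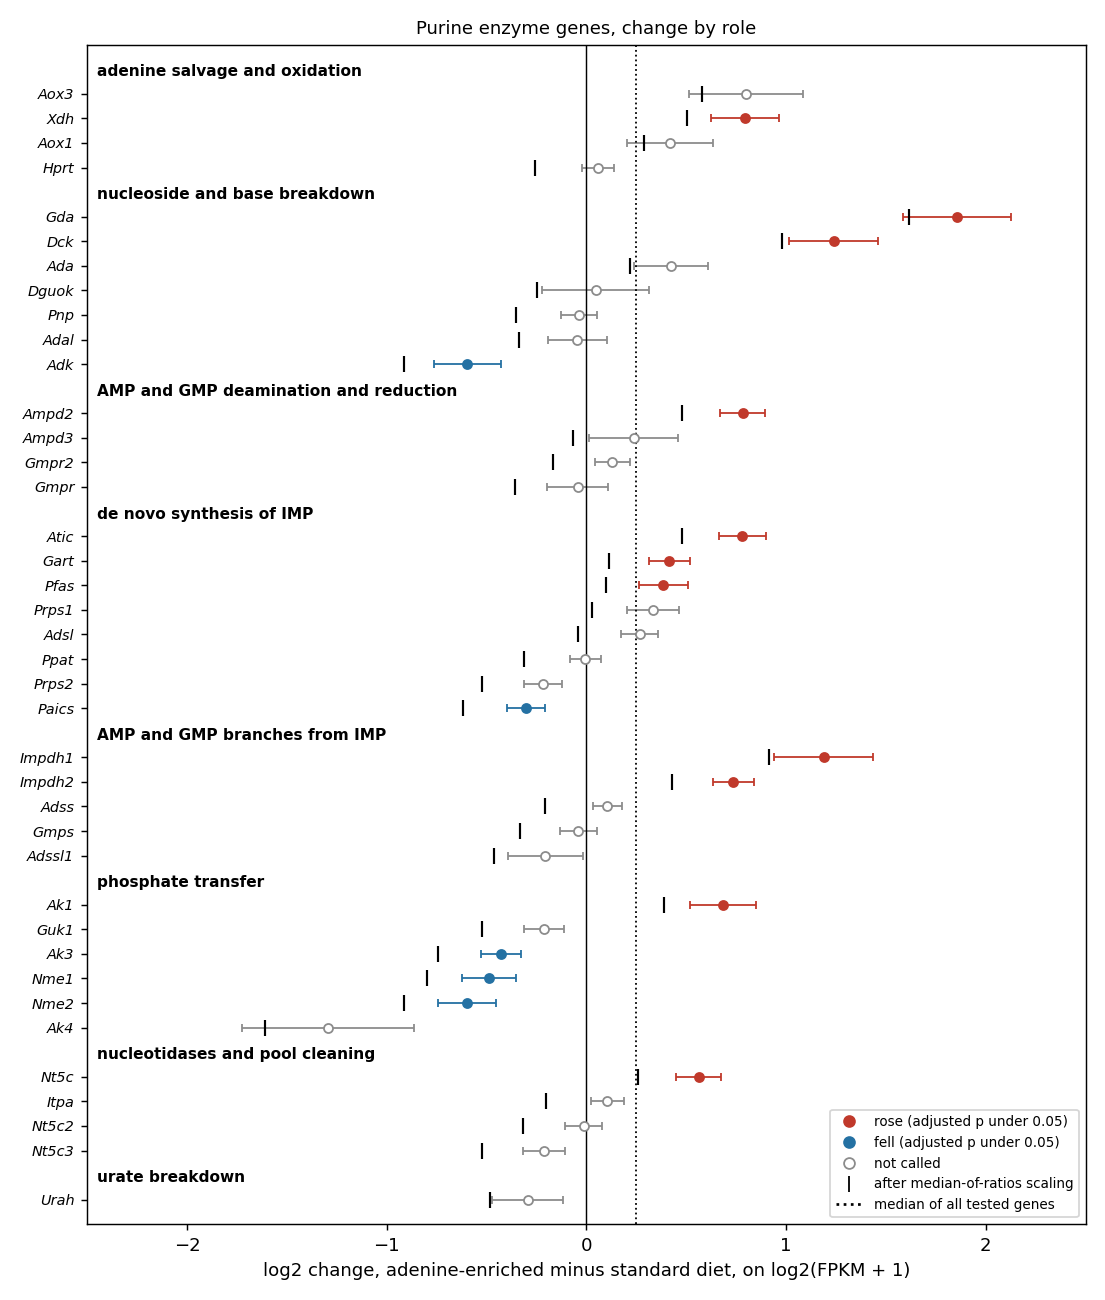
Log2 change (adenine-enriched minus standard diet, on log2(FPKM + 1)) of the 39 tested purine enzyme genes, grouped by role, with standard errors as bars (3 samples in each group). Filled points passed an adjusted p of 0.05, black ticks give the change after median-of-ratios scaling, and the dotted line marks the median of all tested genes at 0.25. Gda lies farthest right, and 5 of the 6 phosphate-transfer genes lie left of 0.

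Xdh, xanthine dehydrogenase (chromosome 17, 73883908 to 73950182, GRCm38, minus strand), rose on the adenine-enriched diet. It had 15.5, 13.9 and 10.2 FPKM in adenine 1 to 3, against 6.44, 6.79 and 8.12 FPKM in standard 1 to 3. All adenine values lay above all standard values, with adenine 3 nearest to them. The ratio of means was 1.86, and the log2 change 0.80 ± 0.17 (SE, limma adjusted p = 0.0163). The aldehyde oxidases Aox1 and Aox3, molybdenum enzymes related to Xdh whose genes lie 6716 bp apart on chromosome 1, did not pass the test. Aox3 had 4.64, 3.37 and 3.26 FPKM in adenine 1 to 3, against 1.49, 3.07 and 0.964 FPKM in standard 1 to 3 (limma adjusted p = 0.0671). Its groups did not overlap, but standard 2 lay close below the adenine values, and without standard 2 the gene was called (limma adjusted p = 0.0322). Aox1, less abundant than Aox3, had 1.56, 0.766 and 0.733 FPKM in adenine 1 to 3, against 0.671, 0.591 and 0.236 FPKM in standard 1 to 3 (limma adjusted p = 0.167). It averaged 0.499 FPKM in standard samples and so reached the mean of 0.5 FPKM needed for testing only through the adenine samples. Hprt, which salvages hypoxanthine and guanine and is often used as a reference gene, had 90.5, 92.0 and 84.8 FPKM in adenine 1 to 3, against 88.3, 81.6 and 86.7 FPKM in standard 1 to 3. Those values overlapped, and the log2 change was 0.06 ± 0.08 (SE, limma adjusted p = 0.578), or -0.26 after median-of-ratios scaling (adjusted p = 0.0861). The rise of Xdh was lost without adenine 2 (limma adjusted p = 0.0634), standard 1 (0.056) or standard 2 (0.0556), with quantile normalization (0.0839), and with the replicate number as a block combined with median-of-ratios scaling (0.0929).

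Among the 39 tested genes the largest change was that of Gda, guanine deaminase, which turns guanine into xanthine (chromosome 19, 21391307 to 21473445, minus strand). It had 12.4, 7.43 and 5.43 FPKM in adenine 1 to 3, against 1.52, 1.25 and 1.69 FPKM in standard 1 to 3. Every adenine sample stood above all standard samples, and the means stood 5.66-fold apart, at 8.42 ± 3.59 FPKM in adenine samples and 1.49 ± 0.22 FPKM in standard samples (log2 change 1.86 ± 0.27 SE, limma adjusted p = 0.00683). Dck, a kinase of deoxycytidine that also accepts purine deoxynucleosides, had 10.7, 7.72 and 5.73 FPKM in adenine 1 to 3, against 3.04, 2.96 and 2.28 FPKM in standard 1 to 3. It rose 2.92-fold (limma adjusted p = 0.0103). In both genes adenine 1 was highest and adenine 3 lowest of the adenine samples. Adk, which phosphorylates adenosine to AMP, went the other way, with 78.4, 93.2 and 122 FPKM in adenine 1 to 3, against 140.1, 142 and 157 FPKM in standard 1 to 3. All its adenine values lay below the standard ones, a fall of 1.49-fold (log2 change -0.60 ± 0.17 SE, limma adjusted p = 0.034). The calls of Gda and Dck held under every alternative in which they were tested, each omission of a library included. That of Adk ended without adenine 1 (limma adjusted p = 0.0664), adenine 2 (0.104), standard 1 (0.0778), standard 2 (0.0826) or standard 3 (0.102), with no filter on low values (0.0536) and with quantile normalization (0.0617).

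Ada, which deaminates adenosine, was low at 2.74, 1.59 and 2.26 FPKM in adenine 1 to 3, against 1.11, 1.34 and 1.66 FPKM in standard 1 to 3, with adenine 2 inside the standard range (limma adjusted p = 0.113). Its log2 change was 0.42 as deposited and -0.09 with quantile normalization. Pnp, which splits inosine and guanosine into base and sugar phosphate, was abundant and did not pass the test, at 84.1 ± 1.99 FPKM in adenine samples and 86.5 ± 7.12 FPKM in standard samples (limma adjusted p = 0.757). In annotated transcripts 33.0% of the 100-base stretches of Pnp also occur in its neighbour Pnp2, so how fragments were split between them is uncertain. Pnp2 itself was listed far lower, at 0.144 to 0.591 FPKM in adenine samples and 0.240 to 0.329 FPKM in standard samples. Adal, a relative of Ada, averaged 10.7 ± 1.26 FPKM in adenine samples and 11.1 ± 1.89 FPKM in standard samples. Dguok, the mitochondrial deoxyguanosine kinase, averaged 14.2 ± 1.91 FPKM in adenine samples and 14.3 ± 5.86 FPKM in standard samples, with standard 1 at 20.8 FPKM standing above the other standard samples. Neither passed the test (limma adjusted p = 0.824 and 0.895). With block and scaling combined, Pnp and Adal were called as falls, with log2 changes of -0.35 and -0.34 (limma adjusted p = 0.0355 and 0.0406).

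Of the AMP deaminases, which convert AMP to IMP, Ampd2 rose and Ampd3 did not pass the test. Ampd2 (chromosome 3, 108074062 to 108086651, minus strand) had 30.3, 32.7 and 37.1 FPKM in adenine 1 to 3, against 20.6, 19.3 and 17.0 FPKM in standard 1 to 3. The groups were well apart, the rise was 1.76-fold (log2 change 0.78 ± 0.11 SE, limma adjusted p = 0.00647), and adenine 3, not adenine 1, was the highest. Ampd3, the form of red blood cells, averaged 19.0 ± 2.72 FPKM in adenine samples and 16.3 ± 4.88 FPKM in standard samples (limma adjusted p = 0.415). Its log2 change of 0.24 became -0.06 after median-of-ratios scaling. Within a library the ratio of Ampd3 to Ampd2 was 0.635, 0.659 and 0.435 in adenine 1 to 3, against 0.787, 1.10 and 0.676 in standard 1 to 3. It was lower in all adenine samples (exact permutation test, two-sided, p = 0.1, the smallest that 3 against 3 samples allow, and 0.2 after adjustment over the 4 ratios computed). Ampd1, the skeletal muscle form, was listed at 0 in all 6 libraries. The GMP reductases, which return GMP to IMP, did not pass the test, with Gmpr at 47.1 ± 9.35 FPKM in adenine samples and 48.0 ± 3.69 FPKM in standard samples and Gmpr2 at 15.7 ± 0.653 FPKM in adenine samples and 14.2 ± 0.787 FPKM in standard samples (limma adjusted p = 0.837 and 0.271). The change of Gmpr2 was 0.13 on the log2 scale and -0.17 after median-of-ratios scaling, and 27.3% of its 100-base stretches occur in transcripts of Tinf2. The rise of Ampd2 was lost only with the replicate number as a block combined with median-of-ratios scaling (limma adjusted p = 0.0611), of the alternatives tried.

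**Figure D2:**
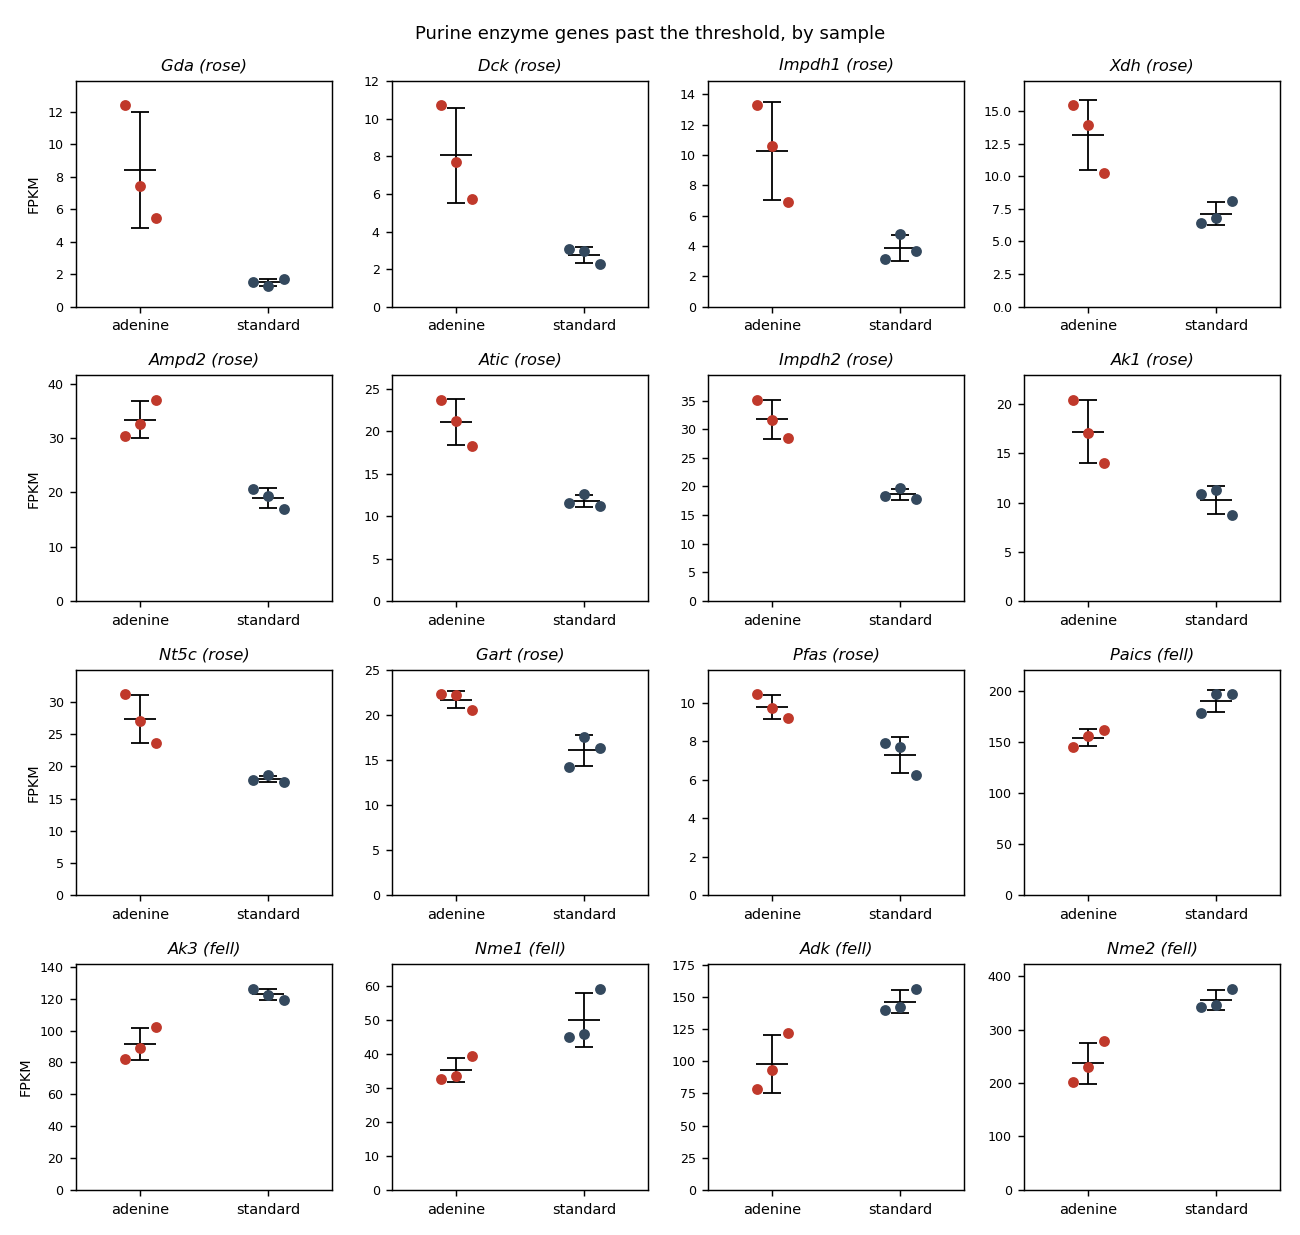
FPKM of the 16 purine enzyme genes past the threshold in each sample, adenine-enriched diet at left and standard diet at right, with a line at the mean and whiskers of 1 SD (3 samples). In every panel the groups do not overlap, and Gda has the widest gap for its level, at 5.43 to 12.4 FPKM in adenine samples against 1.25 to 1.69 FPKM in standard samples.

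The enzymes that build IMP did not move together. Of 8 tested genes 3 rose, 1 fell and 4 were not called, beside 29.7% and 6.84% of all tested genes that rose and fell. After median-of-ratios scaling 1 rose and 3 fell, beside 16.4% and 15.8%. Atic, which carries out the last steps to IMP (chromosome 1, 71557150 to 71579631, plus strand), had 23.8, 21.2 and 18.3 FPKM in adenine 1 to 3, against 11.6, 12.6 and 11.2 FPKM in standard 1 to 3. Its groups were far apart, and it rose 1.79-fold (log2 change 0.78 ± 0.12 SE, limma adjusted p = 0.00725), a call that held under every alternative. Gart, an enzyme with several activities early in the chain, had 22.4, 22.2 and 20.7 FPKM in adenine 1 to 3, against 14.3, 17.6 and 16.4 FPKM in standard 1 to 3, a 1.35-fold rise (limma adjusted p = 0.024), and 11.5% of its 100-base stretches occur in transcripts of Gm15964. Pfas, which acts between the steps that Gart catalyses, had 10.5, 9.74 and 9.20 FPKM in adenine 1 to 3, against 7.93, 7.71 and 6.25 FPKM in standard 1 to 3, a 1.34-fold rise (limma adjusted p = 0.0493). Both sets of values were without overlap, but the log2 changes of 0.42 and 0.38 shrank to 0.11 and 0.10 after median-of-ratios scaling (adjusted p = 0.428 and 0.439), and that of Pfas was -0.04 with quantile normalization (adjusted p = 0.747). The call of Gart also ended with quantile normalization (limma adjusted p = 0.275), with the block and scaling combined (0.357), and without adenine 1 (0.0636), adenine 2 (0.0899), standard 1 (0.0673) or standard 3 (0.0622). The call of Pfas ended with no filter (limma adjusted p = 0.0694), with block and scaling combined (0.453), and without adenine 1 (0.127), adenine 2 (0.137), adenine 3 (0.0504), standard 1 (0.077), standard 2 (0.0926) or standard 3 (0.119).

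Paics, which acts in the middle of the chain (chromosome 5, 76951307 to 76967509, plus strand), was by far the most abundant of the IMP enzymes and fell. It had 146, 157 and 162 FPKM in adenine 1 to 3, against 178, 197 and 197 FPKM in standard 1 to 3. The adenine values lay below all standard values, by 1.23-fold on average (log2 change -0.30 ± 0.09 SE, limma adjusted p = 0.0472). Ppat, which commits PRPP to purine synthesis, starts head to head with Paics on the opposite strand, and the gene models overlap by 272 bp. It had 21.4, 21.4 and 21.6 FPKM in adenine 1 to 3, against 22.5, 21.4 and 20.7 FPKM in standard 1 to 3, which overlapped (limma adjusted p = 0.962). Its window shown above holds no CACGTG, while that of Paics, which lies within the gene model of Ppat, does. The windows cover different stretches, and a link between the match and the levels was not tested. The labels do not state that counting used strand, so fragments from the shared stretch cannot be assigned to either gene. With median-of-ratios scaling both genes were called as falls, with log2 changes of -0.62 for Paics and -0.31 for Ppat (limma adjusted p = 0.0182 and 0.0384). The call of Paics was lost with the replicate number as a block (limma adjusted p = 0.0524), no filter (0.0558), a mean of at least 5 FPKM (0.0522), no variance trend (0.0574), a robust variance prior (0.063) and quantile normalization (0.282). It also ended without adenine 1 (limma adjusted p = 0.108), adenine 2 (0.137), standard 1 (0.0721), standard 2 (0.14) or standard 3 (0.131).

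The PRPP synthetases, which supply the activated ribose, and Adsl, which acts both before IMP and in the AMP branch, complete this group. Prps1 had 22.0, 25.5 and 26.6 FPKM in adenine 1 to 3, against 16.4, 20.8 and 21.2 FPKM in standard 1 to 3 (limma adjusted p = 0.0836, and 0.0347 with the replicate number as a block). Prps2 had 28.0, 28.2 and 27.5 FPKM in adenine 1 to 3, against 29.7, 36.4 and 31.9 FPKM in standard 1 to 3 (limma adjusted p = 0.118). Neither gene's groups overlapped, Prps1 being higher and Prps2 lower in adenine samples. The ratio of Prps2 to Prps1 was 1.27, 1.11 and 1.03 in adenine 1 to 3, against 1.81, 1.76 and 1.50 in standard 1 to 3. The ratio was lower in every adenine sample (exact permutation test, two-sided, p = 0.1, the smallest possible, adjusted p = 0.2), which library scaling cannot alter. The retrogene copy Prps1l3, listed at 20.0 to 22.1 FPKM in adenine samples and 19.2 to 26.9 FPKM in standard samples, holds 3.43% of the 100-base stretches of Prps1. Adsl averaged 29.1 ± 1.6 FPKM in adenine samples and 24.0 ± 1.83 FPKM in standard samples (limma adjusted p = 0.0614). Its log2 change of 0.27 became -0.04 once scaled by median of ratios.

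Beyond IMP, the IMP dehydrogenases rose and the other enzymes did not pass the test. These dehydrogenases catalyse the rate-limiting step towards GMP, Impdh2 being the form linked to dividing cells and Impdh1 the form of many resting tissues. Impdh1 (chromosome 6, 29200434 to 29216364, minus strand) had 13.3, 10.6 and 6.88 FPKM in adenine 1 to 3, against 3.11, 4.79 and 3.65 FPKM in standard 1 to 3. It rose 2.67-fold (log2 change 1.19 ± 0.25 SE, limma adjusted p = 0.015), with adenine 3 nearest to the standard range. Impdh2 (chromosome 9, 108560534 to 108565519, plus strand) had 35.2, 31.7 and 28.4 FPKM in adenine 1 to 3, against 18.4, 19.7 and 17.8 FPKM in standard 1 to 3. The groups were clearly apart, and the rise was 1.71-fold (log2 change 0.74 ± 0.10 SE, limma adjusted p = 0.00628), a call that held under every alternative. Impdh1 made up 27.4, 25.1 and 19.5% of the summed FPKM of both genes in adenine 1 to 3, against 14.5, 19.6 and 17.0% in standard 1 to 3. Expressed as the ratio of Impdh2 to Impdh1, the groups overlapped, since adenine 3 at 4.13 exceeded standard 2 at 4.10 (exact permutation test, two-sided, p = 0.2, adjusted p = 0.267). Of the 100-base stretches of Impdh2, 31.4% also occur in the pseudogene Impdh2-ps. The call of Impdh1 was lost without adenine 2 (limma adjusted p = 0.0567), standard 1 (0.0523) or standard 3 (0.0511).

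Gmps, which completes GMP, had 9.9 ± 0.436 FPKM in adenine samples and 10.2 ± 0.41 FPKM in standard samples (limma adjusted p = 0.751). Adss, the ubiquitous enzyme at the start of the AMP branch, averaged 48.9 ± 1.46 FPKM in adenine samples and 45.4 ± 1.27 FPKM in standard samples (limma adjusted p = 0.283). Its log2 change of 0.10 became -0.21 after median-of-ratios scaling. Adssl1, the muscle form of the same enzyme, was far less abundant, at 3.66 ± 0.857 FPKM in adenine samples and 4.36 ± 0.827 FPKM in standard samples (limma adjusted p = 0.404). Its log2 change of -0.21 was -0.71 with quantile normalization (limma adjusted p = 0.0132) and -0.46 with block and scaling combined (0.0312), both called as falls.

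**Figure D3:**
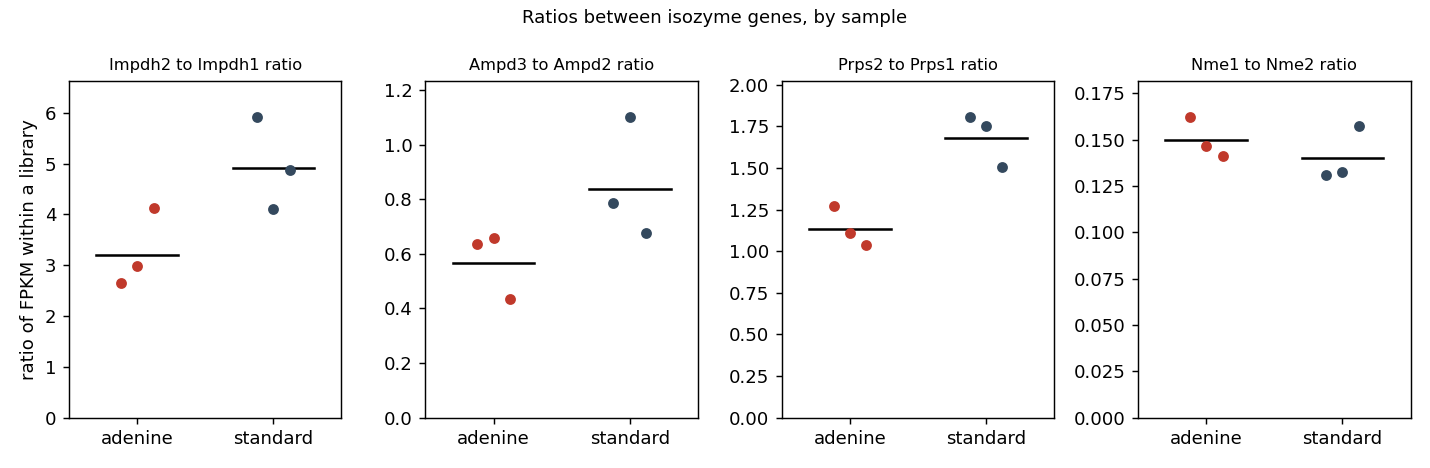
Ratio of FPKM between isozyme genes within each library, adenine-enriched diet at left and standard diet at right, with points for the 3 samples of a group and lines at their geometric means. The ratios of Ampd3 to Ampd2 and of Prps2 to Prps1 are lower in all adenine samples than in all standard samples, and the other ratios overlap.

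Of the 6 genes of phosphate transfer between nucleotides 3 fell and 1 rose, beside 6.84% and 29.7% of all tested genes, and 5 fell with median-of-ratios scaling, beside 15.8%. None of the 3 falls was called by limma without adenine 2 or without any of the standard libraries. Falls over all genes numbered 231 to 435 in those omissions, against 1056 with every library kept. Nme2 and Nme1, neighbouring nucleoside diphosphate kinases that turn diphosphates into triphosphates, both fell. Nme2 (chromosome 11, 93949814 to 93956259, minus strand), the most abundant of all purine enzyme genes, had 202, 229.5 and 279 FPKM in adenine 1 to 3, against 343, 347 and 377 FPKM in standard 1 to 3. The groups did not overlap, and the fall was 1.5-fold (log2 change -0.60 ± 0.14 SE, limma adjusted p = 0.0222). Nme1 (chromosome 11, 93956979 to 93968521, minus strand) had 32.8, 33.7 and 39.4 FPKM in adenine 1 to 3, against 45.0, 46.0 and 59.4 FPKM in standard 1 to 3, again without overlap and by 1.42-fold (limma adjusted p = 0.0332). The ratio of Nme1 to Nme2 overlapped between the diets, at 0.141 to 0.162 in adenine samples and 0.131 to 0.157 in standard samples (exact permutation test, two-sided, p = 0.4, adjusted p = 0.4). A read-through gene across both, Gm20390, holds 44.5% of the 100-base stretches of Nme2 and 9.62% of those of Nme1, so their separate levels are uncertain. The call of Nme1 ended without adenine 1 (limma adjusted p = 0.0857), adenine 2 (0.107), standard 1 (0.0555), standard 2 (0.0638) or standard 3 (0.0747). That of Nme2 ended without adenine 2 (limma adjusted p = 0.0832), standard 1 (0.0599), standard 2 (0.065) or standard 3 (0.0753), and with quantile normalization (0.0599).

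The adenylate kinases, which balance AMP with ADP and ATP or GTP, did not move together. Ak1, the cytosolic form (chromosome 2, 32621758 to 32646805, plus strand), had 20.5, 17.1 and 14.0 FPKM in adenine 1 to 3, against 10.8, 11.3 and 8.69 FPKM in standard 1 to 3, a 1.68-fold rise without overlap (limma adjusted p = 0.0219). Ak3, a form of the mitochondrial matrix (chromosome 19, 29020833 to 29047961, minus strand), had 82.4, 89.3 and 102 FPKM in adenine 1 to 3, against 126, 122 and 119 FPKM in standard 1 to 3. Its adenine values lay below all standard ones, a fall of 1.34-fold (limma adjusted p = 0.022), and 10.99% of its 100-base stretches occur in transcripts of Cdc37l1. Ak4, also mitochondrial, had 23.6, 50.2 and 76.5 FPKM in adenine 1 to 3, against 82.8, 112 and 150.1 FPKM in standard 1 to 3. Although the groups did not overlap and the means stood 2.3-fold apart, samples within a diet varied widely and the gene was not called (log2 change -1.29 ± 0.43 SE, limma adjusted p = 0.0551). With the replicate number as a block it was called (limma adjusted p = 0.0114), as it was after median-of-ratios scaling (0.0455) and without adenine 3 (0.0184). Ak1 made up 16.2, 10.9 and 7.28% of the summed FPKM of Ak1, Ak3 and Ak4 in adenine 1 to 3, against 4.93, 4.58 and 3.13% in standard 1 to 3, a larger share in every adenine sample than in any standard sample. Guk1, which phosphorylates GMP, averaged 37.7 ± 4.57 FPKM in adenine samples and 43.6 ± 0.445 FPKM in standard samples (limma adjusted p = 0.142, and 0.0253 without adenine 3). The call of Ak1 ended with quantile normalization (limma adjusted p = 0.0648) and without adenine 2 (0.0726), standard 1 (0.0555), standard 2 (0.05) or standard 3 (0.0666), and that of Ak3 without adenine 2 (0.0839), standard 1 (0.0697), standard 2 (0.0678) or standard 3 (0.0585).

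Among nucleotidases, which strip the phosphate from nucleotides, Nt5c rose. This cytosolic deoxynucleotidase (chromosome 11, 115490420 to 115491862, minus strand) had 31.2, 27.1 and 23.7 FPKM in adenine 1 to 3, against 17.9, 18.6 and 17.6 FPKM in standard 1 to 3, a 1.51-fold rise without overlap (limma adjusted p = 0.0138). Nt5c2, which acts on IMP and GMP, averaged 21.1 ± 1.3 FPKM in adenine samples and 21.3 ± 1.33 FPKM in standard samples (limma adjusted p = 0.919, and 0.041 as a fall with block and scaling combined). Nt5c3, which prefers pyrimidine nucleotides, averaged 34.1 ± 3.82 FPKM in adenine samples and 39.5 ± 2.22 FPKM in standard samples (limma adjusted p = 0.146, and 0.0413 without adenine 3). Itpa, which clears inosine triphosphate from the pool, averaged 28.1 ± 1.95 FPKM in adenine samples and 26.0 ± 0.336 FPKM in standard samples (limma adjusted p = 0.337). Its log2 change of 0.11 became -0.20 after median-of-ratios scaling. The rise of Nt5c was lost with median-of-ratios scaling (limma adjusted p = 0.0616), with quantile normalization (0.0502), with block and scaling combined (0.0913) and without adenine 2 (0.055).

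Genes of urate breakdown, a route of the liver, were low or listed at 0. Uox, urate oxidase (chromosome 3, 146597077 to 146632305, plus strand), had 0.454, 0.477 and 0.471 FPKM in adenine 1 to 3 and was listed at 0 in standard 1 to 3. Its mean lay below 0.5 FPKM, so it was not tested, and since the standard values have no spread no p-value is given. At the estimated depths, and with the longest annotated transcript of 2737 bp, the adenine values correspond to 20.9 to 27.7 fragments. On the same terms 3 fragments in a standard library would give at most 0.068 FPKM. Urah, the next enzyme of the route, had 0.939, 1.73 and 1.19 FPKM in adenine 1 to 3, against 1.93, 1.96 and 1.47 FPKM in standard 1 to 3 (limma adjusted p = 0.223, and 0.0259 as a fall with quantile normalization). Allc, annotated as allantoicase, was listed at 0 in all 6 libraries.

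Across the called genes the adenine samples were not alike. Among the 11 genes that rose, adenine 1 was the highest adenine sample in 10, the exception being Ampd2, and adenine 3 was nearest to the standard samples in the same number. In all 5 genes that fell adenine 1 was the lowest. Among all tested genes adenine 1 was the most extreme in 80.3% of those that rose and 76.4% of those that fell, so this order was shared with most of the kidney's changed genes. The sums of macrophage, fibroblast and dividing-cell markers had the same order, highest in adenine 1, and those of proximal tubule markers were lowest there. For podocyte, endothelial and B and plasma cell markers adenine 1 was also highest, but adenine 2, not adenine 3, was lowest.

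**Figure D4:**
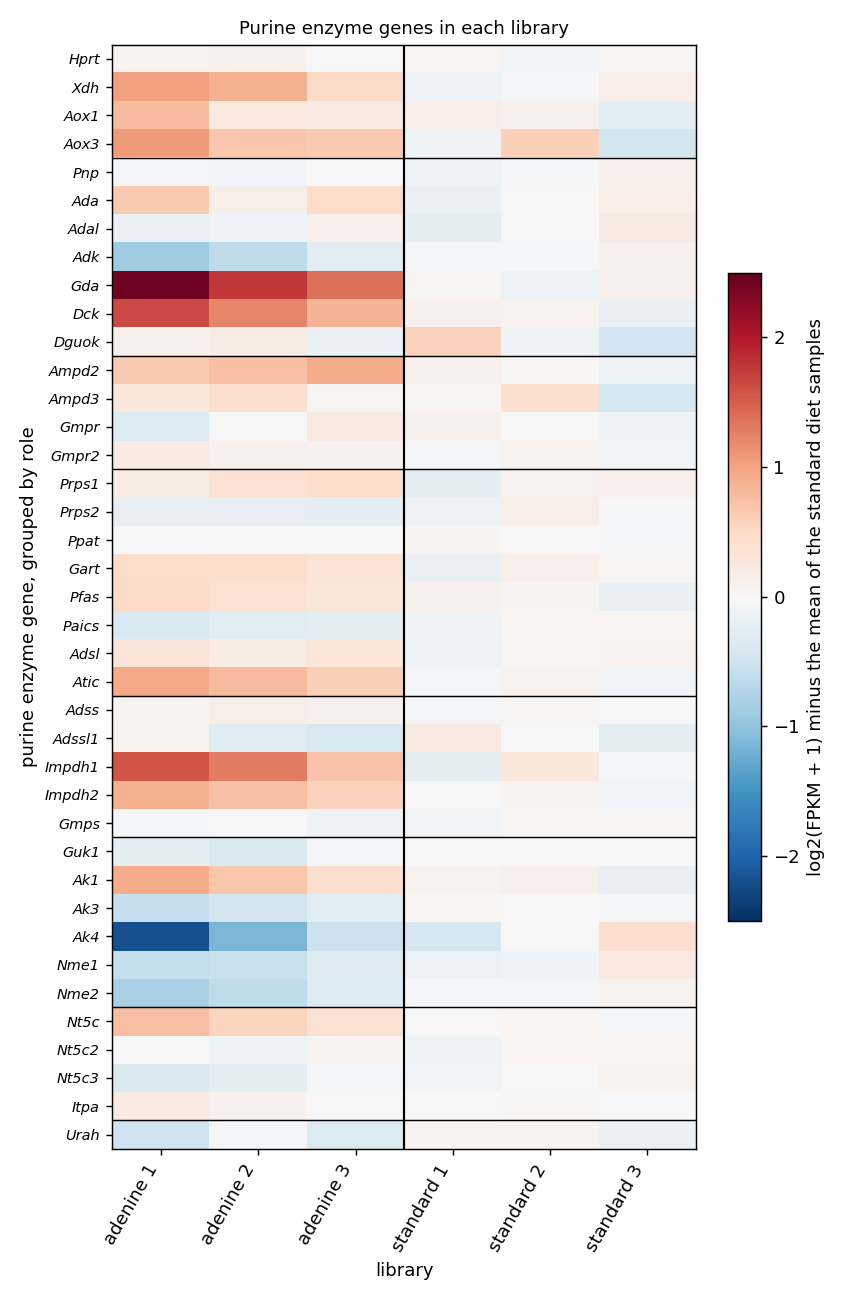
Level of each tested purine enzyme gene in each library, as log2(FPKM + 1) minus the mean of the 3 standard diet samples, with adenine libraries at left and lines between roles. Gda, Dck and Impdh1 are reddest and Ak4 and Adk bluest in adenine 1, while adenine 3 is the palest adenine library for most called genes.

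Routes that feed or neighbour purine metabolism gave mixed results, against a background of 29.7% of all tested genes that rose and 6.84% that fell (16.4% and 15.8% with median-of-ratios scaling). In the pentose phosphate pathway, the source of ribose phosphate, 6 of 9 genes rose, but after median-of-ratios scaling 1 rose and 3 fell. H6pd, the enzyme of the endoplasmic reticulum that starts this route, had 116, 121 and 105.5 FPKM in adenine 1 to 3, against 59.0, 69.7 and 61.0 FPKM in standard 1 to 3, and rose under both scalings (limma adjusted p = 0.00472 and 0.0133). Pgls, another enzyme of the pathway, averaged 25.8 ± 1.56 FPKM in adenine samples and 17.9 ± 2.04 FPKM in standard samples (limma adjusted p = 0.0154, and 0.213 after scaling). Among 15 genes of folate-bound carbon units, which supply atoms of the purine ring, 3 rose and 2 fell (3 and 4 with median-of-ratios scaling). The mitochondrial enzymes Mthfd1l and Mthfd2 rose, with Mthfd1l at 3.64, 2.08 and 1.85 FPKM in adenine 1 to 3, against 0.537, 0.620 and 0.186 FPKM in standard 1 to 3, and Mthfd2 at 6.71 ± 2.13 FPKM in adenine samples and 2.67 ± 0.362 FPKM in standard samples (limma adjusted p = 0.0114 and 0.0145). Mthfd1l averaged 0.448 FPKM in standard samples and so reached the mean needed for testing only through the adenine samples, as did Nt5c1a among the further purine enzymes below. The folate receptor Folr1 averaged 151 ± 42.9 FPKM in adenine samples and 277 ± 35.3 FPKM in standard samples, and Mthfs, which returns a stored folate form to use, 14.2 ± 0.185 FPKM in adenine samples and 20.1 ± 1.45 FPKM in standard samples (limma adjusted p = 0.0238 and 0.0116).

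Of 19 genes of pyrimidine synthesis and salvage 7 rose and 3 fell (5 and 3 with median-of-ratios scaling). Cad, which starts pyrimidine synthesis, averaged 9.37 ± 1.62 FPKM in adenine samples and 3.84 ± 0.916 FPKM in standard samples, and Ctps, which makes CTP, 27.1 ± 3.76 FPKM in adenine samples and 13.2 ± 0.799 FPKM in standard samples (limma adjusted p = 0.00867 and 0.00475). Cytidine deaminase Cda fell, at 79.9 ± 28.5 FPKM in adenine samples and 134 ± 2.97 FPKM in standard samples, as did Dctpp1, which clears deoxynucleoside triphosphates, at 16.3 ± 1.45 FPKM in adenine samples and 21.8 ± 0.979 FPKM in standard samples (limma adjusted p = 0.0471 and 0.0223). Among 25 tested further enzymes of purine nucleotides 6 rose and 2 fell (5 and 7 with median-of-ratios scaling). Rrm2, the ribonucleotide reductase subunit of dividing cells, averaged 9.4 ± 4.49 FPKM in adenine samples and 2.54 ± 0.195 FPKM in standard samples, and Lacc1, a purine nucleoside enzyme of macrophages, 9.77 ± 2.62 FPKM in adenine samples and 3.18 ± 0.401 FPKM in standard samples (limma adjusted p = 0.0155 and 0.00745). Ahcy, which releases adenosine from adenosylhomocysteine, fell to 84.3 ± 19.9 FPKM in adenine samples, against 187 ± 15.8 FPKM in standard samples, and Nudt2, which splits diadenosine polyphosphates, to 15.9 ± 1.22 FPKM in adenine samples, against 20.1 ± 0.799 FPKM in standard samples (limma adjusted p = 0.00709 and 0.0358).

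Of the 6 genes for the molybdenum cofactor, which Xdh and the aldehyde oxidases need, 1 was called, the fall of Mocs2. Mocs2, a subunit of the synthase, had 44.6, 47.9 and 56.0 FPKM in adenine 1 to 3, against 77.7, 79.1 and 81.7 FPKM in standard 1 to 3, with the groups far apart (log2 change -0.68 ± 0.10 SE, limma adjusted p = 0.00728). With median-of-ratios scaling 4 of the 6 fell. Among 6 tested carriers of nucleosides and nucleobases Slc29a1, an equilibrative nucleoside transporter, rose to 40.2 ± 1.8 FPKM in adenine samples, against 30.0 ± 4.44 FPKM in standard samples (limma adjusted p = 0.0337, and 0.587 with median-of-ratios scaling). Of 9 urate carriers Abcg2, an export pump of the apical membrane, fell to 141 ± 33.3 FPKM in adenine samples, against 224 ± 36.8 FPKM in standard samples (limma adjusted p = 0.0412), and 3 of the 9 fell after median-of-ratios scaling. Of the 17 genes named from these further lists, 7 kept their call without any single library, namely Lacc1, Ahcy, Mocs2, Mthfd1l, H6pd, Cad and Ctps. The call ended without standard 2 for Mthfd2 (limma adjusted p = 0.0519), without adenine 2 for Mthfs (0.0515), without adenine 2 or standard 2 for Rrm2 (up to 0.0548) and Pgls (up to 0.0534), and without adenine 2 or any standard library for Folr1 (up to 0.0786) and Dctpp1 (up to 0.0734). It ended with the omission of each library except adenine 3 for Cda (limma adjusted p up to 0.119) and Abcg2 (up to 0.121), of each except standard 3 for Slc29a1 (up to 0.103), and of each of the 6 for Nudt2 (up to 0.111).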

How the data were processed

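Total RNA of whole kidneys was sequenced as paired 100 bp reads on an Illumina HiSeq2500 from TruSeq libraries made from 1 μg of RNA with random hexamers, per the labels' protocols. The authors deposited FPKM per gene in 1 column per sample, made, per the submitters' processing notes, with Cufflinks 2.1.1, TopHat and bcl2fastq 2.0 on mm10 and GRCm38. No annotation, strand setting or TopHat version was found in the labels or headers. A second table was not used, since its 6 value columns name samples outside the sample list.

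Differences were fitted with limma 3.58.1 (R 4.3.3, variance trend, two-sided) on values of log2(FPKM + 1), keeping 15431 genes whose mean reached 0.5 FPKM, with Benjamini-Hochberg adjustment over all of them and a threshold of 0.05; the code was tested on simulated data. Log2 changes on this scale understate those of low genes, and folds are ratios of mean FPKM. Ratios were compared by exact permutation over samples. A count test was not run, because the values could not be turned back into whole fragments. Depth was taken from 1 to 3 steps of low FPKM in transcripts over 2000 bp with a nominal fragment of 200 bp, where 68.3% to 74.6% of values lay within 0.15 of a whole fragment, and is approximate, covering counting error only. Shared 100-base stretches were counted in GENCODE M21 transcripts, and 21 of the 42 genes shared none with another gene. Where a listed symbol had several entries, the most abundant was used.

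The members, gene lists and markers were chosen with earlier results of these data known. Described in full were Xdh, Aox1, Aox3, Hprt, Ada and each gene past the threshold without overlap of the groups, and from each further list up to 2 rises and 2 falls of largest change; 1 gene of the folate list is not reported here. Across genes, same-numbered samples of the diets deviated together (r = 0.257, 0.143 and 0.181, against -0.187 to 0.0376 for other pairs). Because each diet was centred on its own mean, these correlations are not independent and cannot establish a pairing. The main fit is unpaired, and the number served as a block only in the alternatives that say so. That block comes from these same data, not from a label, so calls gained with it are descriptive. The alternatives were other pseudocounts (0.1 and 0.5), filters (none, 5 FPKM), scalings, variance priors, the block, and the omission of each library.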

Additional observations from a re-analysis of the deposited data

How the results depend on the processing

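Of the 16 calls, those of Gda, Dck, Atic and Impdh2 held under every alternative in which each was tested. All changed genes numbered 5637 (81.3% of them higher in adenine samples), 4959 after median-of-ratios scaling (50.9% higher) and 4377 with quantile normalization (48.9% higher), and 2119 to 7046 with 1 library left out. The 11 rises among purine enzymes became 6 with quantile normalization and 6 with the replicate block and median-of-ratios scaling together, and ranged over 5 to 10 with 1 library left out. The 5 falls became 3 with no filter, 11 after median-of-ratios scaling and 14 with the replicate block and that scaling together, and ranged over 0 to 8 with 1 library left out. The replicate block alone gave 12 rises and 5 falls, and apart from Prps1, Ak4 and Paics it changed no call among purine enzymes. The causes were not tested beyond what each scaling does by construction.

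Log2 changes that changed sign were, under median-of-ratios scaling (with or without the replicate block) -0.26 for Hprt, -0.25 for Dguok, -0.064 for Ampd3, -0.17 for Gmpr2, -0.041 for Adsl, -0.21 for Adss and -0.20 for Itpa, none of them called as a rise or fall before scaling. With quantile normalization they were -0.087 for Ada, -0.28 for Dguok, -0.052 for Ampd3, -0.17 for Gmpr2, -0.041 for Pfas and -0.10 for Itpa, of which Pfas alone had been called. With 1 library left out, the log2 changes of Pnp, Adal, Dguok, Gmpr, Ppat and Nt5c2 also crossed 0, over ranges of -0.087 to 0.027 for Pnp, -0.16 to 0.066 for Adal, -0.19 to 0.34 for Dguok, -0.18 to 0.11 for Gmpr, -0.032 to 0.025 for Ppat and -0.064 to 0.032 for Nt5c2. The ratio of Xdh to Aprt was not run. No other ratio changed direction, nor its side of the threshold, which 3 against 3 samples cannot pass. At the estimated depths 3 fragments of a 2 kb transcript correspond to at most 0.0862 FPKM. Genes with a mean below 0.5 FPKM were left out of the main fit, and the smallest detectable difference was not tested.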
